A study of Homo sapiens with 12 samples.

Results

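The genes of the major histocompatibility complex (MHC) class II pathway and CIITA, the factor that switches them on, were followed in medulloblastoma cells exposed to the histone deacetylase inhibitor entinostat. The members were the classical chains HLA-DRA, HLA-DRB1, HLA-DPA1, HLA-DPB1, HLA-DQA1 and HLA-DQB1, the peptide editors HLA-DMA and HLA-DMB, the invariant chain CD74, and CIITA. A probe set, the group of short oligonucleotides that reports on a transcript, was taken as a member where its array annotation carried a current or former symbol of these genes. This gave 32 of 54613 probe sets, for 10 of 19775 genes. Of these, 26 carried a single symbol and 6 carried several class II symbols, and the shared ones stand for no single gene.

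HD-MB03, an established human group 3 medulloblastoma line with an amplified MYC gene, was cultured with 1 µM entinostat for 48 h, DMSO (the solvent) for 48 h, 1 µM entinostat for 24 h or DMSO for 24 h. Entinostat inhibits class I histone deacetylases. Each group had 3 biological replicates, each hybridized to an Affymetrix U133 Plus 2.0 array of its own, and all came from this cell line alone. Linear intensities were deposited, with array medians between 80.6 and 81.8 and a lowest value of 36.7.

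A class II molecule is a pair of an alpha and a beta chain that shows peptides from the endosomes to CD4+ T cells. It is assembled on the invariant chain CD74, and HLA-DM exchanges the remnant of CD74 for peptide. Professional antigen-presenting cells make these genes constantly, most other cells only after interferon gamma, and in both the coactivator CIITA is brought to a conserved set of promoter boxes (S, X and Y) by the proteins RFX, CREB and NF-Y.

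The signal of the DR, DP, DM and DQ beta genes was higher in entinostat than in DMSO at both times, while no probe set of HLA-DQA1, CD74 or CIITA passed the test. At 48 h, 18 of the 32 probe sets were higher in entinostat than in DMSO (limma, Benjamini-Hochberg adjusted p under 0.05 over all probe sets), beside 12.9% of all probe sets called higher. At 24 h, 15 were higher, beside 12.8% of all. None was called lower at either time, where 13.2% of all probe sets were at 48 h and 12.4% at 24 h, and 0 were lower at an unadjusted p under 0.05. The 15 probe sets called at 24 h were all called at 48 h too, and 7 of the 10 genes had a called probe set at each time. By 1 probe set per gene, that of the highest mean, 17.3% of all 19775 genes were called higher at 48 h and 18.2% at 24 h. A gene with several probe sets had more chances to be among the 7. Every entinostat array stood above every DMSO array in 18 of the 32 at 48 h and in 18 at 24 h, beside 17.4% of all probe sets at each time. The 2 sets of 18 differed, since 209823_x_at was apart at 48 h alone and 244485_at at 24 h alone. In 0 members at 48 h was every entinostat array below, as in 20.5% of all. Fold changes of the called probe sets ran from 1.19 to 2.87 at 48 h and from 1.12 to 2.15 at 24 h. The median log2 fold change of the members was 0.32 at 48 h and 0.21 at 24 h, beside -0.02 and -0.03 over all probe sets. RNA was taken from whole cultures, so more cells with class II RNA and more RNA per cell cannot be told apart.

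**Figure D1:**
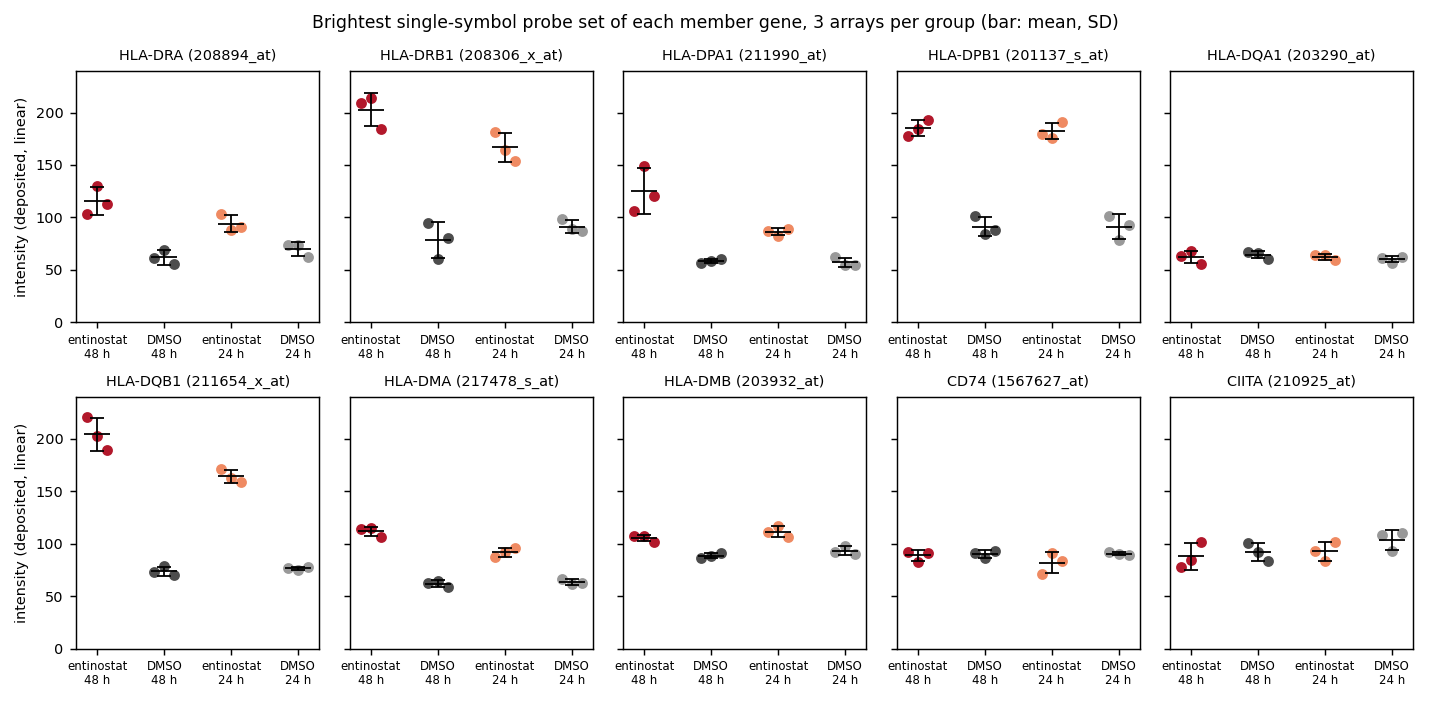
Deposited intensity (linear scale) of the probe set with the highest mean for each of the 10 genes, with 1 point per array, a bar at the mean and whiskers of 1 SD over 3 arrays. In the panels of HLA-DRB1, HLA-DPB1 and HLA-DQB1 the entinostat arrays lie between 154 and 221 and the DMSO arrays between 60.0 and 102, while the groups of HLA-DQA1, CD74 and CIITA overlap at 48 h.

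The X and Y boxes through which class II promoters are bound can be read in the reference promoters of several members, printed here because these are the sites at which RFX, CREB and NF-Y hold CIITA. RefSeq promoter windows of build GRCh38.p14, from 250 bases before to 50 after the gene start, were at hand for 8 of the 10 genes, as 9 windows. They were searched on both strands for X-like letters GNNACNGA followed after 24 or 25 bases by Y-like letters ATTGG, the core of the NF-Y site that is read as CCAAT when taken from the opposite strand. The letters were chosen from the known spacing of the boxes and after these windows had been seen. The pair was found in 4 of the 9 member windows and in 47 of 35116 windows in all (0.134%). Alone, the X-like letters stood in 41.3% and the Y-like letters in 34.6% of all windows, and the Y-like letters stood in 7 of the 9. Capitals mark the matched letters, and each stretch is the reference sequence, not that of HD-MB03, and runs 5′ to 3′ along the strand of its gene.
HLA-DRB1, chr6:32589878-32589938, minus strand: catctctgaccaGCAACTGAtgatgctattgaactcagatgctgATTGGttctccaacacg
HLA-DQB1, chr6:32666729-32666789, minus strand: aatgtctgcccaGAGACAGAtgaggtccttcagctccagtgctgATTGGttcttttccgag
HLA-DMA, chr6:32953160-32953221, minus strand: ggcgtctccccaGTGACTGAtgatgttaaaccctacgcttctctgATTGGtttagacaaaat
HLA-DQA1, chr6:32637293-32637354, plus strand: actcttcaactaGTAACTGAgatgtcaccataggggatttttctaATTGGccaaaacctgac
HLA-DPB1, chr6:33075843-33075907, plus strand: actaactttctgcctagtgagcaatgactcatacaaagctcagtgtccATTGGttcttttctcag
The X-like letters began 78 bases before the start of HLA-DRB1, 120 before that of HLA-DQB1, 112 before that of HLA-DMA and 101 before that of HLA-DQA1. The bases between the boxes numbered 24 in HLA-DRB1 and HLA-DQB1 and 25 in HLA-DMA and HLA-DQA1. HLA-DPB1 is shown for its Y-like letters, 99 bases before the start, since the searched pair was not in its window. The pair was absent too from the windows of HLA-DMB and HLA-DPA1, whose signal rose, and of CD74, whose signal did not pass. The HLA-DPA1 windows held no Y-like letters either. Thus the pair was present in some of the genes whose signal rose and in HLA-DQA1, whose signal did not pass the test. A match is a description and no measured binding.

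HLA-DRA encodes the alpha chain shared by all DR molecules, and HLA-DRB1 the main, highly variable DR beta chain. At 48 h, HLA-DRA (208894_at) had intensities of 104, 130.3 and 112 in entinostat against 61.3, 69.2 and 55.4 in DMSO. At 24 h it had 103, 87.6 and 91.0 in entinostat against 73.5, 73.2 and 62.2 in DMSO. The groups did not overlap at either time. On the log2 scale HLA-DRA rose by 0.90 (standard error 0.11, adjusted p = 3.96e-05 from limma) at 48 h and by 0.43 (0.11, adjusted p = 0.00938) at 24 h. Its other probe set, 210982_s_at, rose by 0.73 at 48 h (adjusted p = 8.2e-05), with 0.24 at 24 h (adjusted p = 0.0876). With Benjamini-Yekutieli adjustment the 24 h call of 208894_at, the only HLA-DRA call at that time, was lost (adjusted p = 0.108). The 24 h value of 210982_s_at passed once entinostat replicate 2 of 48 h was left out (adjusted p = 0.0412).

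HLA-DRB1 (208306_x_at) had 209, 214 and 185 in entinostat at 48 h, against 94.6, 60.0 and 80.3 in DMSO at 48 h. After 24 h it had 182, 164.5 and 154 in entinostat, against 98.3, 88.55 and 87.0 in DMSO. Every entinostat array stood above every DMSO array, and the DMSO arrays at 48 h were themselves spread widely. HLA-DRB1 rose 2.63-fold at 48 h (log2 1.39, standard error 0.13, adjusted p = 6.72e-06 from limma) and 1.83-fold at 24 h (log2 0.87, 0.13, adjusted p = 0.000361). Endings in _x_at and _s_at mark probe sets that can bind several similar transcripts, and how well probes fit the alleles of HD-MB03 is not known from the values.

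The DP pair, encoded by HLA-DPA1 and HLA-DPB1, rose in both chains. HLA-DPA1 (211990_at) had 106, 149 and 121 in entinostat at 48 h, against 56.65, 58.8 and 60.3 in DMSO at 48 h. In entinostat at 24 h it had 87.1, 82.65 and 89.3, against 62.0, 55.0 and 54.3 in DMSO at 24 h. The groups were apart at both times, with replicate 2 the highest at 48 h. HLA-DPA1 rose 2.12-fold at 48 h (log2 1.08, standard error 0.10, adjusted p = 5.07e-06 from limma) and 1.51-fold at 24 h (log2 0.60, 0.10, adjusted p = 0.000691). Its probe set 213537_at rose by log2 0.91 at 48 h and 0.64 at 24 h. The third, 211991_s_at, rose by 0.36 at 48 h and by 0.17 at 24 h (adjusted p = 0.0366). The 24 h call of 211991_s_at was lost when any entinostat replicate at 24 h, or DMSO replicate 1 or 2 at 24 h, was left out, with log2 values of 0.15 to 0.18 and adjusted p between 0.0607 and 0.118.

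HLA-DPB1 (201137_s_at) had 178, 185 and 193 in entinostat at 48 h, against 102, 84.1 and 87.8 in DMSO at 48 h. At the earlier time the values were 179.9, 176 and 191 in entinostat, against 102, 78.9 and 93.0 in DMSO. HLA-DPB1 had near equal fold changes at both times, 2.04-fold at 48 h (log2 1.03, standard error 0.09, adjusted p = 3.95e-06 from limma) and 2.01-fold at 24 h (log2 1.01, 0.09, adjusted p = 5.19e-06). The difference between the times was 0.02 on the log2 scale (95% confidence interval -0.27 to 0.31). Its dimmer probe set 244485_at did not pass, with 0.10 at 48 h (interval -0.03 to 0.23) and 0.11 at 24 h (interval -0.02 to 0.24).

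The DQ pair was divided in its calls, since probe sets of the beta chain passed and those of the alpha chain, all dim, did not. HLA-DQB1, the beta chain, was represented by 7 probe sets, of which 6 rose at 48 h and 5 at 24 h. HLA-DQB1 (211654_x_at) had 221, 203 and 189.5 in entinostat at 48 h, against 72.6, 78.4 and 70.1 in DMSO at 48 h. In entinostat at 24 h it had 171, 163 and 159, against 76.8, 75.2 and 77.5 in DMSO at 24 h. This 2.77-fold rise at 48 h (log2 1.47, standard error 0.06, adjusted p = 1.37e-08 from limma) and 2.15-fold rise at 24 h (log2 1.10, 0.06, adjusted p = 1.42e-07) had the lowest p of the 32 probe sets at each time.

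Because 211654_x_at may also bind other beta chain genes, the 2 DQB1 probe sets without such an ending were read apart. They split, as 209480_at rose at both times and 210747_at passed at neither, with 0.05 at 48 h (adjusted p = 0.607), against -0.04 at 24 h (adjusted p = 0.669). HLA-DQB1 (209480_at) had 107, 123.5 and 109 in entinostat at 48 h, against 53.0, 52.15 and 53.5 in DMSO at 48 h. The 24 h arrays read 95.5, 87.5 and 85.9 in entinostat, against 53.05, 50.2 and 53.25 in DMSO. It rose by log2 1.09 at 48 h (adjusted p = 1.21e-07) and by 0.78 at 24 h (adjusted p = 2.08e-06). The probe sets 212998_x_at, 212999_x_at and 211656_x_at rose by 0.85, 0.79 and 0.45 at 48 h and by 0.67, 0.65 and 0.29 at 24 h. The 24 h arrays of 212999_x_at were widely spread in entinostat, at 78.9, 97.65 and 54.6, against 47.4, 45.2 and 51.1 in DMSO. The last DQB1 probe set, 209823_x_at, rose at 48 h (0.28, adjusted p = 0.00235) with 0.07 at 24 h (adjusted p = 0.431).

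HLA-DQA1 encodes the alpha chain that DQ beta needs to reach the cell surface. HLA-DQA1 (203290_at) had 63.0, 67.6 and 55.9 in entinostat at 48 h, against 66.8, 65.7 and 60.75 in DMSO at 48 h. In entinostat at 24 h it had 64.5, 63.8 and 59.2, against 61.3, 56.6 and 62.7 in DMSO at 24 h. The groups overlapped at both times. The log2 fold change of HLA-DQA1 was -0.06 at 48 h (95% confidence interval -0.22 to 0.11, adjusted p = 0.685 from limma) and 0.06 at 24 h (interval -0.11 to 0.22, adjusted p = 0.679). Its other probe sets, 213831_at and 236203_at, had 0.03 and 0.02 at 48 h and -0.04 and 0.04 at 24 h. The upper bounds of the 203290_at intervals lay below the log2 fold changes of HLA-DQB1 209480_at, though no test set the chains against each other. Probe set 236203_at lay at percentile 0.491 of all probe sets in entinostat and 0.145 in DMSO at 48 h, close to the lowest signals on the arrays. At 48 h, 213831_at lay at 10.9 in entinostat and 8.51 in DMSO, and 203290_at at 28.1 and 31.2. Whether HLA-DQA1 RNA was present at all in these cells was not tested, so its calls cannot tell an undetected chain from an unchanged one.

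**Figure D2:**
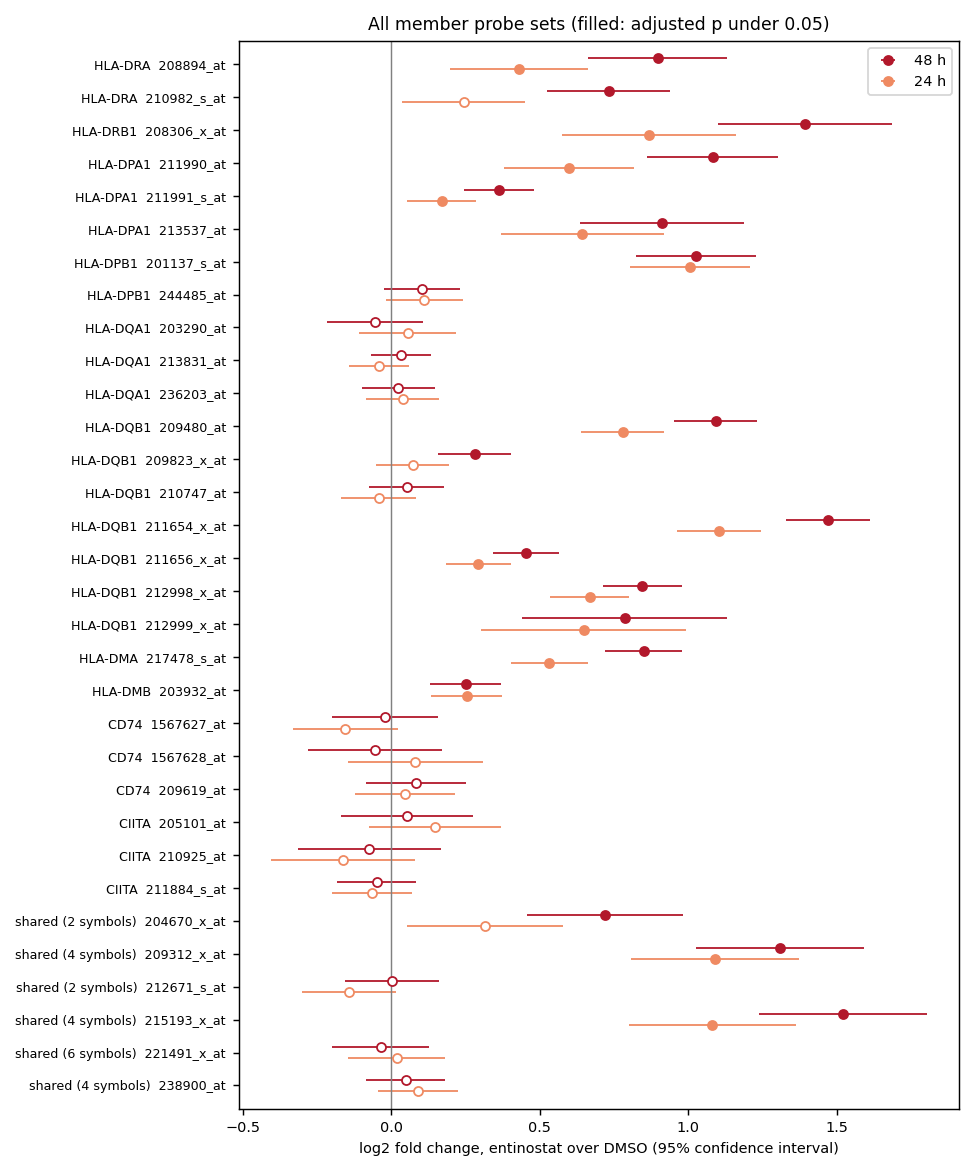
Log2 fold change of entinostat over DMSO for all 32 member probe sets at 48 h (dark red) and 24 h (orange), with 95% confidence intervals from limma and filled symbols where the adjusted p was under 0.05. Of the 18 probe sets filled at 48 h, 15 are also filled at 24 h, and every symbol of HLA-DQA1, CD74 and CIITA is open and has an interval that spans 0.

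The HLA-DM chains form the editor that loads peptide onto class II molecules in late endosomes. HLA-DMA (217478_s_at) had 114, 115 and 107 in entinostat at 48 h, against 62.6, 64.7 and 58.7 in DMSO at 48 h. At 24 h the values were 87.7, 92.1 and 96.1 in entinostat, against 66.8, 61.9 and 62.1 in DMSO. HLA-DMA thus stood clear of DMSO at both times and rose 1.8-fold at 48 h (log2 0.85, standard error 0.06, adjusted p = 4.67e-07 from limma) and 1.45-fold at 24 h (log2 0.53, 0.06, adjusted p = 2.59e-05). HLA-DMB, its partner chain, rose less. HLA-DMB (203932_at) had 107, 107 and 102 in entinostat at 48 h, against 86.5, 88.1 and 91.1 in DMSO at 48 h, and 111, 117 and 107 in entinostat at 24 h, against 92.1, 98.3 and 90.2 in DMSO at 24 h. The rise of HLA-DMB was 1.19-fold at each time (log2 0.25, standard error 0.05, adjusted p = 0.0041 at 48 h, and 0.25, 0.05, adjusted p = 0.00392 at 24 h).

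CD74, the invariant chain, chaperones newly made class II chains and carries them to the endosomes. CD74 (209619_at) had 75.65, 87.7 and 81.2 in entinostat at 48 h, against 77.2, 77.4 and 76.0 in DMSO at 48 h. In entinostat at 24 h it had 71.2, 74.2 and 79.4, against 71.2, 80.95 and 66.1 in DMSO at 24 h. The groups overlapped at both times, and CD74 had log2 fold changes of 0.08 at 48 h (95% confidence interval -0.09 to 0.25, adjusted p = 0.528 from limma) and 0.05 at 24 h (interval -0.12 to 0.22, adjusted p = 0.745). The other CD74 probe sets, 1567627_at and 1567628_at, had -0.02 and -0.06 at 48 h and -0.16 and 0.08 at 24 h. Without entinostat replicate 2 at 24 h, 1567627_at passed as lower at 24 h (log2 -0.24, adjusted p = 0.0495), whereas with all arrays its adjusted p was 0.211.

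CIITA does not bind DNA itself but recruits chromatin modifiers and the transcription machinery to class II promoters. CIITA (210925_at) had 77.4, 84.1 and 102 in entinostat at 48 h, against 100.2, 92.2 and 83.85 in DMSO at 48 h. After 24 h the values were 93.2, 83.6 and 101 in entinostat, against 108, 92.9 and 110.4 in DMSO. The groups overlapped, and the log2 fold change of CIITA was -0.07 at 48 h (95% confidence interval -0.32 to 0.17, adjusted p = 0.715 from limma) and -0.16 at 24 h (interval -0.40 to 0.08, adjusted p = 0.354). CIITA probe set 205101_at had 0.05 at 48 h (interval -0.17 to 0.27) and 0.15 at 24 h (interval -0.07 to 0.37). CIITA probe set 211884_s_at had -0.05 at 48 h (interval -0.18 to 0.08) and -0.07 at 24 h (interval -0.20 to 0.07). At 24 h the arrays of 211884_s_at did not overlap between groups, with 65.85, 65.5 and 67.9 in entinostat against 70.25, 68.9 and 69.3 in DMSO, the only member with lower non-overlapping arrays, where 21.5% of all probe sets had them. The values carry no detection calls, and whether CIITA or CD74 RNA was present at all in these cells was not tested.

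Of the 6 shared probe sets, 3 rose at 48 h and 2 at 24 h, all of them with beta chain symbols. Probe set 215193_x_at (HLA-DRB4, HLA-DRB3, HLA-DRB1 and HLA-DQB1) had 170.4, 254.1 and 162 in entinostat at 48 h, against 68.2, 66.7 and 65.3 in DMSO at 48 h, and the second of these was the highest intensity of any member on any array. It rose 2.87-fold at 48 h (log2 1.52, adjusted p = 2.46e-06) and also 2.12-fold at 24 h (log2 1.08, adjusted p = 4.76e-05). Probe set 209312_x_at rose 2.48-fold at 48 h and 2.13-fold at 24 h. Probe set 204670_x_at rose by log2 0.72 at 48 h and had 0.32 at 24 h (adjusted p = 0.081), a value that passed (adjusted p = 0.0196) when entinostat replicate 3 of 48 h was left out. The other 3 shared probe sets, 212671_s_at with the DQ alpha symbols, 221491_x_at and 238900_at, lay between -0.04 and 0.05 at 48 h and between -0.14 and 0.09 at 24 h.

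Fewer members were called between the times than between the treatments. Between 48 h and 24 h of entinostat, 5 of the 32 probe sets were higher at 48 h and 0 lower, beside 3.31% of all probe sets called higher and 3.88% called lower. At an unadjusted p under 0.05, 10 were higher and 0 lower, though the share of all probe sets at that threshold is not given here. Among the 5 called were HLA-DPA1 211990_at (log2 0.52, adjusted p = 0.00855 from limma) and HLA-DQB1 209480_at (0.33, adjusted p = 0.00873) and 211654_x_at (0.31, adjusted p = 0.0128). The others of the 5 were HLA-DMA 217478_s_at (0.28, adjusted p = 0.0138) and HLA-DRA 210982_s_at (0.41, adjusted p = 0.0234). Between 48 h and 24 h of DMSO, limma called 0 (0.359% of all probe sets were called, and 0 members had an unadjusted p under 0.05). Some of the calls in entinostat were lost when a single array was left out, though the log2 values stayed positive. Without entinostat replicate 1 at 48 h the adjusted p of HLA-DMA was 0.0505, and without entinostat replicate 1 at 24 h it was 0.0549. That of HLA-DQB1 211654_x_at was 0.0514 without entinostat replicate 3 at 24 h, and that of HLA-DRA 210982_s_at lay between 0.0557 and 0.089 without entinostat replicate 2 or 3 at 48 h or replicate 1 or 3 at 24 h. Without entinostat replicate 3 at 24 h, 3 of the 5 calls were left, and without DMSO replicate 3 at 48 h, 6 probe sets were called.

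Of the 18 probe sets called at 48 h, 17 had a larger log2 fold change at 48 h than at 24 h, the exception being HLA-DMB. These 18 were picked by their 48 h values, which tilts the count toward 48 h, and the same count over all probe sets is not given here. The test of the difference between the times itself, the interaction of treatment and time, passed for 0 of the 32 in limma, beside 1.21% of all probe sets. At an unadjusted p under 0.05 it was positive for 12 members and negative for 0. The share of all probe sets at that threshold is not given here, and several of the 12 report on the same genes. The lowest adjusted p, 0.0812, was that of HLA-DQB1 211654_x_at, whose rise was larger at 48 h by 0.37 on the log2 scale. Such a difference between the times was therefore not shown for any single member.

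The members were dim on these arrays, with no intensity above 254.1. No single-symbol member had a mean above 100 in DMSO at 48 h. Within the arrays, HLA-DQB1 211654_x_at lay at percentile 76.0 of all probe sets in entinostat at 48 h and 43.3 in DMSO at 48 h, and HLA-DRB1 at 75.9 in entinostat and 47.7 in DMSO. HLA-DPA1 213537_at lay at 57.2 in entinostat and 7.47 in DMSO. The CIITA probe sets lay between 23.1 and 53.9 in entinostat and between 19.9 and 56.9 in DMSO. A background level is left in the deposited values, which shrinks the fold changes of dim probe sets. With 30 taken off every intensity, the fold change at 48 h was 3.99 for HLA-DQB1 211654_x_at, 3.74 for HLA-DRB1 208306_x_at, 3.28 for HLA-DPA1 211990_at and 2.55 for HLA-DPB1 201137_s_at. The folds given above thus depend on the background kept, while the count of called members stayed at 18 at 48 h and 15 at 24 h.

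**Figure D3:**
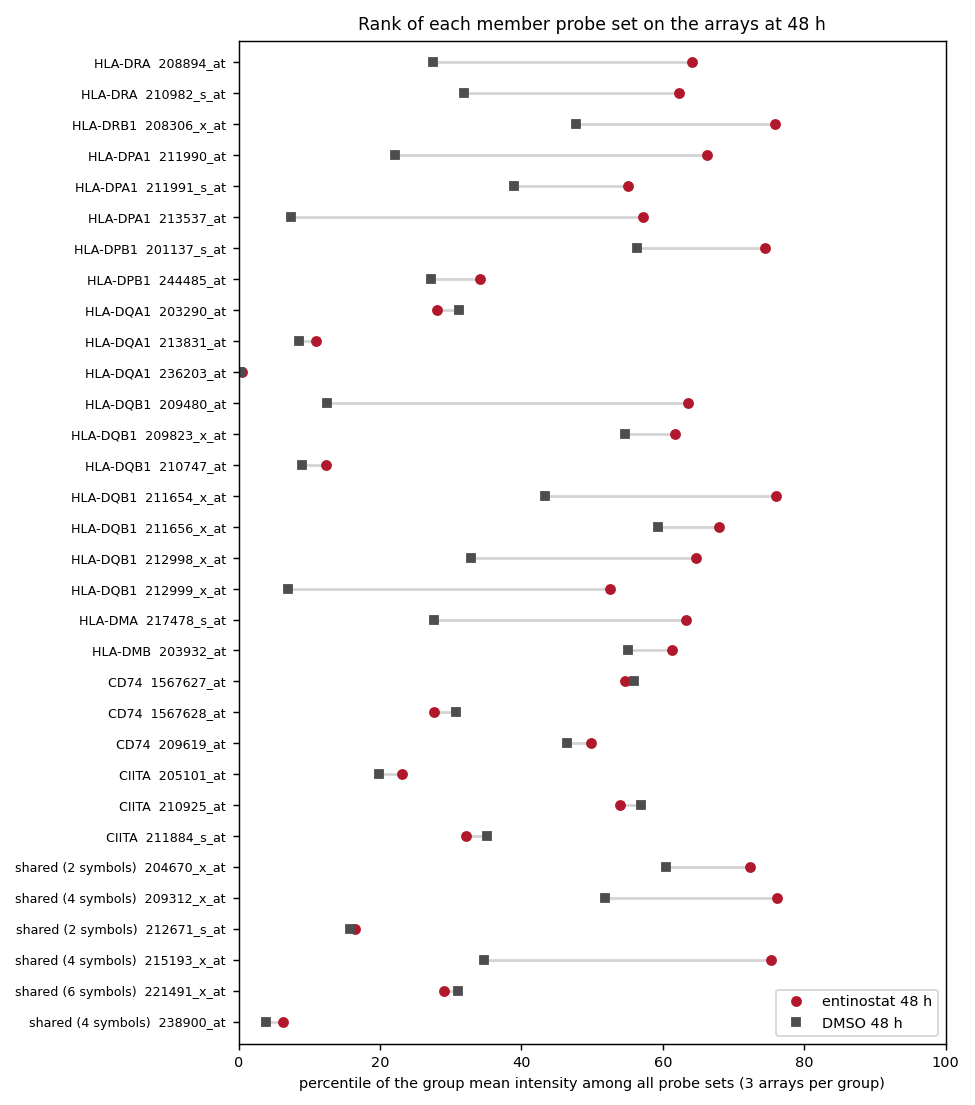
Percentile of the mean intensity among all probe sets at 48 h for each member probe set, in entinostat (red circles) and DMSO (grey squares), over 3 arrays per group. HLA-DQB1 211654_x_at stands at 76.0 in entinostat and 43.3 in DMSO, while the CIITA probe sets stand between 23.1 and 53.9 in entinostat and between 19.9 and 56.9 in DMSO.

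Markers of cells that normally carry class II molecules were looked at beside these rises. Of 10 leukocyte and antigen-presenting cell markers measured, 1 rose at 48 h, CSF1R, the receptor for macrophage colony-stimulating factor (log2 0.29, adjusted p = 0.025), and 0 at 24 h, where CSF1R had 0.23 (adjusted p = 0.0679) and, at an unadjusted p under 0.05 in limma, 1 was higher and 1 lower. The summed intensity of the 10 ranged over 796.2 to 845.5 in entinostat and 785.3 to 817.7 in DMSO at 48 h, and over 758.6 to 807.2 in entinostat and 762.3 to 795.7 in DMSO at 24 h. The defining markers PTPRC (CD45), CD14 and MS4A1 (CD20) had means of 57.7, 61.4 and 63.2 in entinostat at 48 h and 55.1, 64.4 and 60.3 in DMSO at 48 h. The brightest of the 10 at 48 h was the B cell marker CD79A, at 153.6 in entinostat and 148.5 in DMSO. Its log2 fold change at 48 h was 0.04 (adjusted p = 0.801 from limma). Of 4 endothelial markers, KDR, a receptor of vascular endothelial growth factor, rose (0.53 at 48 h and 1.04 at 24 h), while PECAM1, CDH5 and VWF did not pass. Of 8 group 3 medulloblastoma markers, 1 rose and 3 fell at 48 h, and 0 rose and 3 fell at 24 h. All markers stand by the probe set of the highest mean. By that rule 17.3% of all 19775 genes were called higher and 16.6% lower at 48 h. At 24 h these shares were 18.2% and 15%. GABRA5, a GABA receptor subunit, fell by 2.12 on the log2 scale at 48 h and by 1.78 at 24 h, and the retinal gene IMPG2 fell by 1.52 at 48 h and fell by 2.02 at 24 h. The photoreceptor factor CRX fell by 0.44 at 48 h (adjusted p = 0.0324), with -0.21 at 24 h. Of the others, NRL did not pass. Intensities were high for MYC, at 13000 in entinostat and 11550 in DMSO at 48 h (log2 0.17, adjusted p = 0.0163, and 0.04 at 24 h). They were high too for the homeobox gene OTX2, at 6614 in entinostat and 6995 in DMSO at 48 h (log2 -0.08, and -0.22 with adjusted p = 0.0312 at 24 h). NPR3 and EOMES were dim, at 72.8 and 64.0 in entinostat and 78.3 and 70.9 in DMSO at 48 h.

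No gene for the proteins that hold CIITA at class II promoters was called higher at either time. Each related gene stands here by its probe set of the highest mean, beside the share of all 19775 genes called by the same rule. That share was 17.3% for rises and 16.6% for falls at 48 h, and 18.2% for rises and 15% for falls at 24 h. Of 7 enhanceosome genes, 0 rose and 3 fell at 48 h, and 0 rose and 2 fell at 24 h, with 0 higher at an unadjusted p under 0.05 in limma at either time. RFXANK, a subunit of the RFX complex whose loss causes the bare lymphocyte syndrome, fell by 0.76 on the log2 scale at 48 h (adjusted p = 7.05e-06) and by 0.45 at 24 h (adjusted p = 0.000573). The NF-Y subunit NFYB fell by 0.54 at 48 h and by 0.32 at 24 h, and NFYA fell by 0.49 at 48 h (adjusted p = 0.00864), with 0.05 at 24 h (adjusted p = 0.85). RFX5, which binds the X box, had -0.26 at 48 h (adjusted p = 0.16), with 0.04 at 24 h, and RFXAP, NFYC and CREB1 did not pass by the probe set of the highest mean. Other probe sets of these genes, given after their values were seen, fell at both times, NFYC 1559218_s_at by 0.45 at 48 h (adjusted p = 8.97e-05) and by 0.38 at 24 h (adjusted p = 0.000343), and CREB1 237289_at by 0.30 at 48 h (adjusted p = 0.00787) and by 0.23 at 24 h (adjusted p = 0.038). Likewise NFYA 204108_at and 204107_at fell at 24 h, by 0.24 and 0.35.

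Cofactors that CIITA recruits changed in both directions. Of 8 such genes, 2 rose and 3 fell at 48 h, and 2 rose and 4 fell at 24 h. CARM1, an arginine methyltransferase, fell by 0.78 at 48 h and by 0.73 at 24 h, and the histone acetyltransferase CREBBP fell by 0.56 at 48 h and by 0.67 at 24 h. CDK9, the kinase that releases paused polymerase, rose by 0.54 at 48 h and 0.69 at 24 h, and KAT2B, another acetyltransferase, by 0.40 and 0.38. On the interferon gamma route that induces CIITA, 1 of 9 genes rose and 2 fell at each time. JAK1, a kinase of the receptor, rose by 0.94 at 48 h and 1.13 at 24 h, while its partner JAK2 fell by 0.46 at 48 h and by 0.35 at 24 h. The receptor chains IFNGR1 and IFNGR2 and the target genes IRF1 and SOCS1 did not pass by the probe set of the highest mean, though at 24 h IFNGR1 211676_s_at rose by 0.24 (adjusted p = 0.031) and SOCS1 210000_s_at fell by 0.17 (adjusted p = 0.034). IRF1, which is itself induced by interferon gamma and acts at a CIITA promoter, had -0.11 at 48 h (adjusted p = 0.12), with -0.06 at 24 h (adjusted p = 0.451). Among 9 repressors and interferon-independent regulators of CIITA, TFE3 rose (0.18 at 48 h and 0.31 at 24 h) and EBF1 fell (by 0.38 at 48 h and 0.47 at 24 h), while the myeloid and B cell factor SPI1 did not pass. For TFEB, the B cell factor PAX5 and the CIITA repressor PRDM1 the probe sets disagreed. TFEB did not pass with 221866_at, but 50221_at rose by 0.29 at 48 h (adjusted p = 0.00733 from limma) and by 0.64 at 24 h (adjusted p = 1.98e-05). PAX5 did not pass with 206802_at, but 221969_at rose by 0.75 at 48 h (adjusted p = 2.28e-05) and by 0.83 at 24 h (adjusted p = 1.13e-05). PRDM1 did not pass with 217192_s_at, but 228964_at rose by 0.25 at 48 h (adjusted p = 0.00912) and by 0.24 at 24 h (adjusted p = 0.0134).

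**Figure D4:**
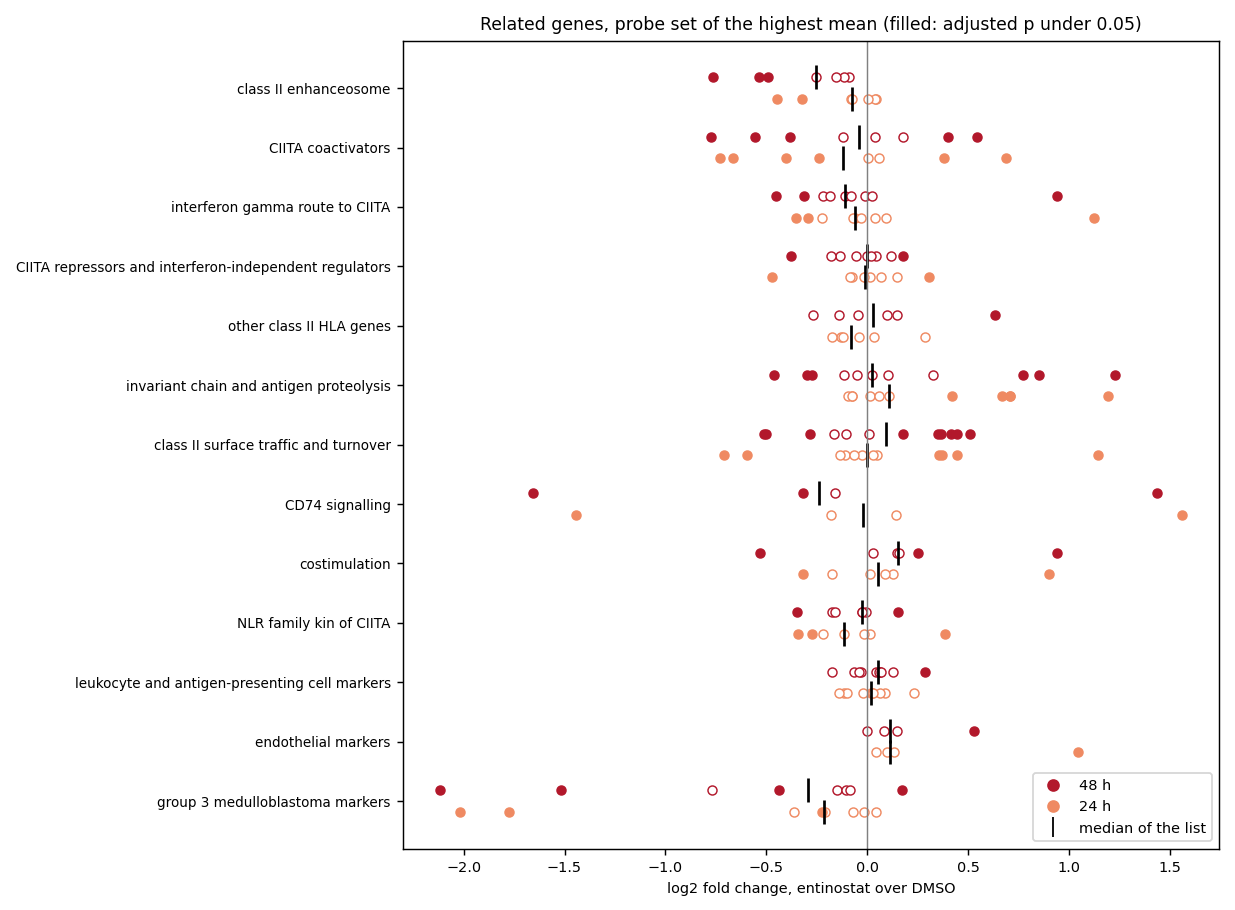
Log2 fold change of entinostat over DMSO for the genes of 13 related lists, 1 point per gene by its probe set of the highest mean, at 48 h (dark red) and 24 h (orange), filled where the adjusted p was under 0.05, with a black tick at the median of each list. The enhanceosome list has 3 filled points below 0 and 0 above at 48 h, and the leukocyte list has 1 filled point at 48 h.

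Of the genes that act after assembly, genes of CD74 and antigen proteolysis, inhibitor included, gave 3 rises and 3 falls among 11 at 48 h. At 24 h they gave 5 rises and 0 falls (0 lower at an unadjusted p under 0.05 in limma). The falls at 48 h include CST3, a cathepsin inhibitor named here after its values were seen (-0.46, adjusted p = 0.0023 from limma), with -0.08 at 24 h. LGMN, an asparagine-specific endosomal protease, rose by 1.23 at 48 h and 1.19 at 24 h. SPPL2A, which cleaves the membrane stub of CD74, rose by 0.85 at 48 h and 0.67 at 24 h, and the cathepsin CTSF by 0.77 and 0.71. CTSS, the cathepsin that finishes CD74 in most antigen-presenting cells and is named here after its values were seen, had 0.10 at 48 h (adjusted p = 0.359), with 0.01 at 24 h (adjusted p = 0.933). Among 12 traffic and turnover genes, 6 rose and 3 fell at 48 h, and 4 rose and 2 fell at 24 h. The ubiquitin ligases that send class II molecules for degradation moved oppositely, with MARCHF1 at 0.51 at 48 h and 0.44 at 24 h and MARCHF8 at -0.50 and -0.60, all past the threshold. VPS33A, of the endosome fusion machinery, fell by 0.51 at 48 h and by 0.71 at 24 h, and the lysosomal membrane protein LAMP2 rose by 0.44 and 0.37. In this list 2 genes, the surface protein CD83 and the lysosomal membrane protein LAMP1, passed the interaction of treatment and time, beside 1.92% of all genes.

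Genes of CD74 signalling and of the T cell contact were mixed. CD44, the signalling partner of surface CD74, fell by 1.66 at 48 h (adjusted p = 8.09e-06) and by 1.44 at 24 h, and the chemokine receptor CXCR4 rose by 1.44 at 48 h (adjusted p = 6.77e-06) and by 1.56 at 24 h. MIF, the cytokine that binds CD74, fell by 0.32 at 48 h (adjusted p = 0.00466), with -0.18 at 24 h (adjusted p = 0.0881). With CXCR2, which did not pass, these 4 genes counted 1 rise and 2 falls at 48 h, and 1 rise and 1 fall at 24 h. Of 6 costimulation and adhesion genes, ICAM1 rose (0.94 at 48 h and 0.90 at 24 h), CD40 rose at 48 h (0.25, with 0.13 and adjusted p = 0.0868 at 24 h) and CD58 fell (by 0.53 at 48 h and 0.32 at 24 h), whereas the T cell ligands CD80 and CD86 did not pass. Other CD40 probe sets rose at both times, 205153_s_at by 0.63 at 48 h and 0.51 at 24 h (adjusted p = 0.00129 at 24 h) and 215346_at by 0.53 and 0.43 (adjusted p = 0.0014 at 24 h). Among 7 NLR family relatives of CIITA, 1 rose and 1 fell at 48 h and 1 rose and 2 fell at 24 h. NLRC5, which does for MHC class I genes what CIITA does for class II, had -0.01 at 48 h (adjusted p = 0.946), with -0.12 at 24 h (adjusted p = 0.15).

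Other class II genes were measured by 6 genes outside the members, of which 1 rose at 48 h and 0 at 24 h (at an unadjusted p under 0.05 in limma, 1 was higher and 1 lower at 24 h). The gene that rose was the DR beta pseudogene HLA-DRB6 (217362_x_at), which rose by 0.63 at 48 h (adjusted p = 0.00068), with 0.29 at 24 h (adjusted p = 0.0739). HLA-DOA, a chain of the DM inhibitor HLA-DO, had 0.15 at 48 h and -0.13 at 24 h with 211142_x_at, but another HLA-DOA probe set, 226878_at, picked after its values were seen, rose by 0.86 at 48 h (adjusted p = 1.05e-05) and by 0.84 at 24 h (adjusted p = 1.58e-05).

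Among 9944 probe sets with a mean log2 intensity of at least 8, those whose pattern over the 12 arrays was most like that of HLA-DRA 208894_at belonged to ALDH1B1 (Pearson r = 0.974), VLDLR (0.967), NDUFAF4 (0.965), SUB1 (0.964) and TXNL4A (0.959). For CD74 1567627_at the list ran from YY1 (0.84) over DEPDC1, NFATC2IP and EIF3A to AQR (0.816), and for CIITA 210925_at from PPP2R5C (0.814) over BUB1, VDAC1 and STUB1 to METTL17 (0.768). These are descriptions over 12 arrays that share the 4 groups.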

How the data were processed

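Total RNA of HD-MB03 cells was measured on 12 arrays, 3 per group. The intensity values were deposited on a linear scale. The authors name GCRMA normalization and log2 transformation at a core facility (no version or annotation release in the sources used here), yet the deposited values are not log2 and keep a background level, so log2 was taken here and the background step is uncertain. No depth applies to arrays, and their number limits the precision.

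From the 54675 probe sets 62 controls were removed. In all 2 cells held no value, none of them in a member. Probe sets were named from the platform annotation; 1801 carried several symbols and 11721 none. The log2 intensities of all arrays were modelled by limma 3.58.1 (R 4.3.3) with 1 coefficient per group, no block and Benjamini-Hochberg adjustment at 0.05. Intervals are at 95%. Contrasts were entinostat minus DMSO at 48 h and 24 h, their difference, and 48 h minus 24 h in each treatment. The procedure was tested on simulated data.

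Named were all members, any gene of related lists with 10 or fewer measured genes, up to 4 of longer lists by the change at 48 h among those called at both times, and the 5 genes most alike. Of 109 listed genes 8 were not analysed here. For lists, the probe set of the highest mean stood for a gene. Members and lists were chosen with earlier results of these data known. Alternatives were a filter at mean log2 7, centring, quantile normalization, another prior, separate fits, a replicate block, Benjamini-Yekutieli, a threshold of 0.01, 30 subtracted, normexp with an offset of 50, other sets of probe sets, and leaving out each array. Promoter sequences are from RefSeq, GRCh38.p14.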

Additional observations from a re-analysis of the deposited data

Results flagged for a closer look

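For 2 genes of the traffic list the effect of entinostat differed between the times by the interaction test of limma. CD83 (204440_at), a surface protein that protects class II molecules from turnover, rose by 0.42 on the log2 scale at 48 h (adjusted p = 0.00737) and by 1.14 at 24 h (adjusted p = 3.23e-06), a difference of -0.73 (adjusted p = 0.0315). LAMP1 (201553_s_at), a lysosomal membrane protein, rose by 0.35 at 48 h (adjusted p = 9.35e-05) and had -0.07 at 24 h (adjusted p = 0.363), a difference of 0.42 (adjusted p = 0.0133).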

How the results depend on the processing

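Centring, quantile normalization, another prior, subtraction of 30 and normexp left 18 member probe sets called at 48 h, 15 at 24 h and 5 for time in entinostat. A filter at mean log2 7 kept 2 member probe sets in the test, of which 2 were called at 48 h, 1 at 24 h and 0 for time in entinostat. With the probe sets whose names end in _x_at or _s_at dropped, 5 were called at 48 h, 5 at 24 h and 2 for time. The 5 were HLA-DRA 208894_at, HLA-DPA1 211990_at and 213537_at, HLA-DQB1 209480_at and HLA-DMB 203932_at. HLA-DRB1 and HLA-DMA had no probe set left, and HLA-DPB1 only 244485_at, which was not called. The share of all probe sets called in this setting is not given here. With 1 probe set per gene, of 10 genes, 7 were called at 48 h, 7 at 24 h and 3 for time. In these settings fewer probe sets were counted. Beside the count per gene, 17.3% of all genes were called higher at 48 h and 18.2% at 24 h by the probe set of the highest mean. Benjamini-Yekutieli adjustment gave 18 at 48 h, 12 at 24 h (lost were HLA-DRA 208894_at at 0.108, HLA-DQB1 212999_x_at at 0.103 and HLA-DPA1 211991_s_at at 0.42) and 0 for time in entinostat. A threshold of 0.01 gave 18, 14 and 2. Separate fits gave 18, 15 and 4, in which HLA-DPA1 211991_s_at at 24 h (adjusted p = 0.0535) and HLA-DRA 210982_s_at for time (0.068) were lost and the shared 204670_x_at at 24 h (0.0279) was gained. The replicate numbers were not treated as pairs in the main fit. After removal of the group means, same-numbered arrays of different groups correlated at -0.06 to 0.20, with 4 of 18 pairs over 0.1. Other-numbered arrays correlated at -0.21 to 0.07, with 0 of 36 over 0.1, so a link between same-numbered arrays is not excluded. With the replicate block, 18 were called at 48 h, 15 at 24 h and 5 for time. Over 12 refits that each left out 1 array, the counts were 18 to 18 at 48 h, 14 to 16 at 24 h and 3 to 6 for time in entinostat. The interaction and time in DMSO stayed at 0 in every setting. Related genes called, marker lists left out, numbered 37 at 48 h and 31 at 24 h by the probe set of the highest mean. By that rule 17.3% of all genes were called higher and 16.6% lower at 48 h, and 18.2% and 15% at 24 h. The probe set of the strongest effect gave 44 and 41. That rule raises the count of any list, and the share of all genes by it is not given here. Over all single member values, 3338 kept their side of the threshold, 26 lost and 6 gained a call, and 0 called values reversed. Most of these values were not called in the main fit, so the 3338 says little about the calls. All 26 losses were of calls at 24 h or for time in entinostat.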
